A study of Homo sapiens and Mus musculus with 18 samples.

Results

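A set of 40 genes of contraction and the actin cytoskeleton was followed through every human library: 18 of smooth muscle contraction, 2 regulators of their transcription, 5 of cardiac and striated muscle and 15 of the general actin cytoskeleton. They were taken as a fixed list of gene symbols, out of 63677 gene IDs in the files that hold 1 library each and 56299 in a table of 6 further human columns. All 40 matched 1 ID in both sets, and all 40 passed the filter on low counts in both. Levels are given as CPM, counts scaled to 1e6 per library after TMM scaling (which sets most genes level between libraries).

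Smooth muscle shortens when calcium and calmodulin switch on myosin light chain kinase (MYLK), which phosphorylates the regulatory light chain MYL9, so that the heavy chain MYH11 pulls on filaments of the actins ACTA2 and ACTG2. Calponin (CNN1), caldesmon (CALD1), transgelin (TAGLN), smoothelin (SMTN), leiomodin (LMOD1) and the tropomyosins TPM1 and TPM2 bind those filaments. SRF switches many of these genes on by binding a DNA element called the CArG box, with myocardin (MYOCD) as its smooth and cardiac muscle partner and the actin-sensing MRTF proteins as partners in most other cells. Mesothelium, the cell layer that lines body cavities and covers organs, can give rise to smooth muscle and fibroblasts in the embryo by an epithelial-to-mesenchymal transition, which brings in ACTA2-bearing stress fibres.

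All human cells came from 1 embryonic stem cell line, WA09, and each first spent 4 days as it was turned into splanchnic mesoderm with 25 ng/ml WNT3A and 100 ng/ml BMP4. MesoT, the mesenchymal form of mesothelium, was then kept with 25 ng/ml WNT3A, 50 ng/ml BMP4 and 4 µM retinoic acid to day 18 or day 22, in a defined medium that also holds 8 ng/ml FGF2 and 10 ng/ml activin A. MesoT FCS was MesoT grown on plastic in 10% fetal bovine serum with 8 ng/ml FGF2 and taken at passage 4. MLC, the epithelial form, was made from splanchnic mesoderm by day 18 with 20 µM SB431542, an inhibitor of TGF-beta type I receptors, and 4 µM retinoic acid in medium without FGF2 or activin A. MesoT-derived MLC was MesoT replated in that MLC medium. The smooth muscle culture was splanchnic mesoderm left for 16 to 18 days, with no further agent listed. Smooth muscle had 1 library and each other group 2. Nothing in the labels says that the 2 came from separate cultures, so p-values measure the spread between these libraries, which may be technical. These are bulk samples, in which fewer cells of a type and less RNA of a gene per cell cannot be told apart.

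The files of 1 library each covered smooth muscle, MLC and MesoT with and without serum (day 18). The human table covered MesoT-derived MLC and both days of MesoT. Each set was scaled and tested apart. Library totals ran from 21148477 to 31435480 counts, except MLC with 70679258 and 65709545. The labelled MesoT day 18 samples were counted in both sets. Of the 40 genes, 35 had day 18 levels within 0.5 log2 of each other in the 2 countings in both replicates (63.2% of all genes compared did), and ACTA2, MYH11, MYL9, TAGLN and ACTA1 did not. A sign of unequal counting touches ACTA2, FLNC and ACTB, and less clearly TPM1. For ACTA2, the antisense neighbour ACTA2-AS1 took 28.1% to 28.6% of the counts of the pair in MesoT day 18, MesoT FCS and smooth muscle of the one-library files. In both MLC libraries of the same set it took 0.887% and 0.906%, and its share was 0.208% to 1.71% in the human table, the same labelled day 18 samples included. FLNC-AS1 likewise took 1.73% to 2.08% of the counts of FLNC and itself in these groups, 0.0779% and 0.0556% in MLC and 0.0459% to 0.102% in the human table. Pseudogene copies of ACTB took 0.252% to 0.292%, against 0.0906% and 0.0831% in MLC and 0.273% to 0.476% in the human table. Strand use in the counting is not given in the sources used here. When the human table's counts stood in for the day 18 libraries, all 10 calls of MLC, all 23 of MesoT FCS and all 3 of smooth muscle against day 18 still passed. Calls over all genes then rose from 5666 to 9237, from 6301 to 12757 and from 1998 to 7935. The swap sets the 2 countings against each other and can add calls of its own, so it cannot settle the part of counting. MesoT FCS had 1 counting here, so MLC against MesoT FCS was not checked this way. The MLC libraries also had the highest totals of the set, and their part in the comparisons of MLC was not tested.

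Promoter windows are shown first because the element that SRF binds lies in some of them. RefSeq windows (GRCh38.p14, 250 bases before to 50 after each start) were given for 34 of the 40 genes, and MYH11, MYL9, TAGLN, DES, MYOCD and ACTB had none. The CArG box is 2 C, then 6 bases that are each A or T, then 2 G, and reads the same way on both strands; its A and T run can also hold a TATA-like stretch. Such a box was found in the windows of 11 of the 34 genes (32.4%), and in 1.60% of the 27305 gene symbols with a window. A match is a run of letters in 300 bases and not a measured site. The 13 boxes follow with 10 bases on each side, the box in capitals, read 5′ to 3′ on the gene's strand.
ACTG2, first box, 110 bases before the start, chr2:73892888-73892917, plus strand: gaaaaaaccaCCTTATATGGtaatattgct
ACTG2, second box, 73 bases before the start, chr2:73892925-73892954, plus strand: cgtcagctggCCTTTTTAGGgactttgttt
MYLK, 94 bases before the start, chr3:123620623-123620652, minus strand: ataaaccatcCCTTTTATGGgagttgaagc
SMTN, 44 bases before the start, chr22:31084942-31084971, plus strand: cggggccgggCCATATAAGGaaaagctagg
SRF, first box, 30 bases before the start, chr6:43171229-43171258, plus strand: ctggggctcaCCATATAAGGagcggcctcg
SRF, second box, 10 bases before the start, chr6:43171249-43171278, plus strand: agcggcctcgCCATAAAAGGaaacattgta
ACTC1, 109 bases before the start, chr15:34795639-34795668, minus strand: gcgaaggggaCCAAATAAGGcaaggtggca
ACTA1, 97 bases before the start, chr1:229434172-229434201, minus strand: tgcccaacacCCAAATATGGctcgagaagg
ACTG1, 94 bases before the start, chr17:81512874-81512903, minus strand: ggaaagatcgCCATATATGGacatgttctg
ACTN1, 171 bases before the start, chr14:68977718-68977747, minus strand: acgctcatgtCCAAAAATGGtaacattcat
CNN2, 89 bases before the start, chr19:1026509-1026538, plus strand: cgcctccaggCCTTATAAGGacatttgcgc
TPM4, 173 bases before the start, chr19:16067355-16067384, plus strand: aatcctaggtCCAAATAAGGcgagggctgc
FLNA, 94 bases before the start, chrX:154374709-154374738, minus strand: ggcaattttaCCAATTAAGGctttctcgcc

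For MYLK, SMTN and ACTN1 the window with the box belongs to a start inside the gene, 263784, 20878 and 1736 bases from its outer end. The boxes lay 10 to 173 bases before the start. The 250 bases before the start are shown whole for ACTG2, the actin gene that rose most in serum, and ACTC1, the one that rose most in the smooth muscle library, again with the boxes in capitals.
ACTG2, chr2:73892758-73893007, plus strand: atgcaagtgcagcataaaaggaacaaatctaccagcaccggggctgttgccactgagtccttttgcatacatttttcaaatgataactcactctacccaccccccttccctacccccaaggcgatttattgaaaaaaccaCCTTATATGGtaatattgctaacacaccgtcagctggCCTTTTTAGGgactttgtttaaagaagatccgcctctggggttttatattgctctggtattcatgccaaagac
ACTC1, chr15:34795550-34795799, minus strand: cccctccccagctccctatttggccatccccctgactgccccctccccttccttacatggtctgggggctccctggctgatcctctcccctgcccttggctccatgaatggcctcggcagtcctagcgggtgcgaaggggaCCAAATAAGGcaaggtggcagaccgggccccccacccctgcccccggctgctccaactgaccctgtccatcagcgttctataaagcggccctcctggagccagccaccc

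Many of the genes rose in serum and none fell. In MesoT FCS against MesoT day 18, 23 of the 40 genes rose and 0 fell (edgeR quasi-likelihood test, Benjamini-Hochberg adjusted p under 0.05), beside 13.0% of all 23049 genes tested that rose and 14.4% that fell. The median log2 fold change of the 40 was 1.76, beside -0.16 over all genes. By list, 8 of 18 smooth muscle genes, 1 of 2 regulators, 1 of 5 cardiac and striated genes and 13 of 15 general actin genes rose. The direct route to MLC moved the genes both ways: against MesoT day 18, 4 rose and 6 fell, beside 7.83% and 16.8% of all genes. These 10 of 40 are close to the 24.6% of all genes called there in either direction. Against MesoT FCS, MLC had 31 of the 40 genes lower and 0 higher, beside 26.3% of all genes lower and 22.6% higher. These comparisons share libraries (MesoT day 18 or MesoT FCS).

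**Figure D1:**
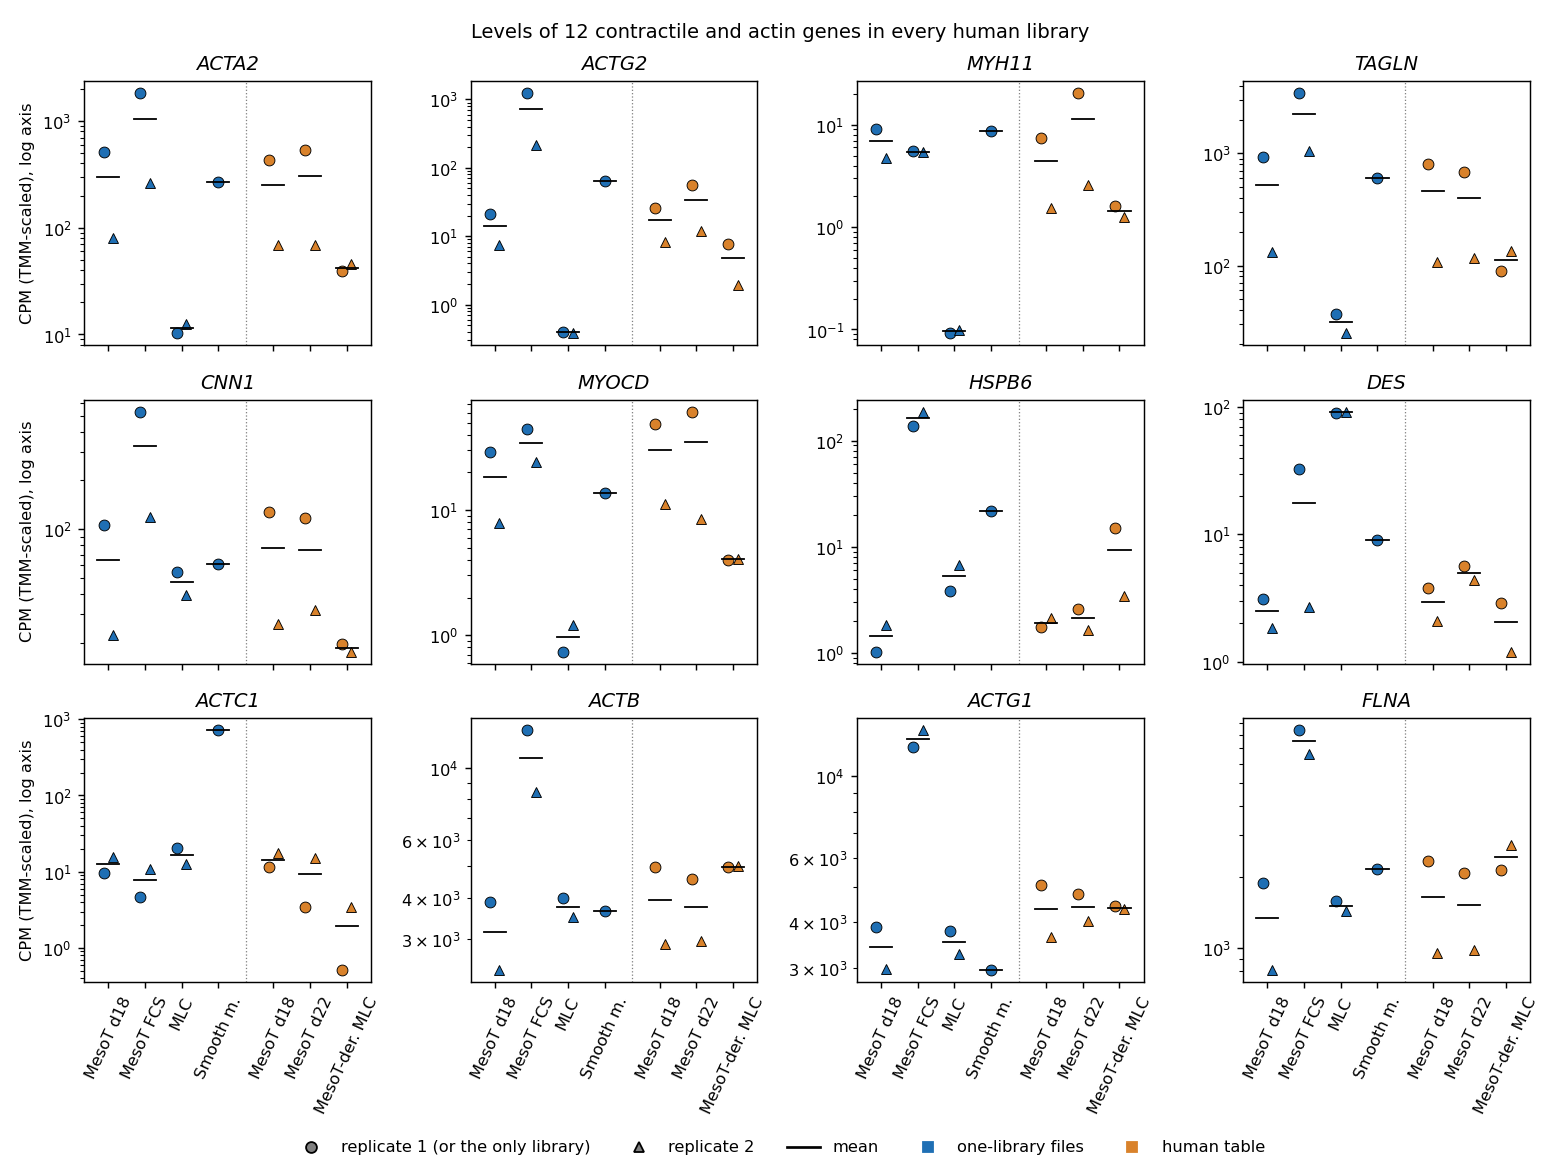
CPM after TMM scaling (log axis, a separate range in each panel) of 12 genes in every human library; circles are replicate 1 or the only library, triangles replicate 2, bars the mean, blue the one-library files and orange the human table, which were scaled apart. ACTA2 spans 10.3 to 1830 CPM and stands apart between the 2 libraries of each MesoT group, while ACTC1 is high in the smooth muscle library alone at 718 CPM.

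**Figure D2:**
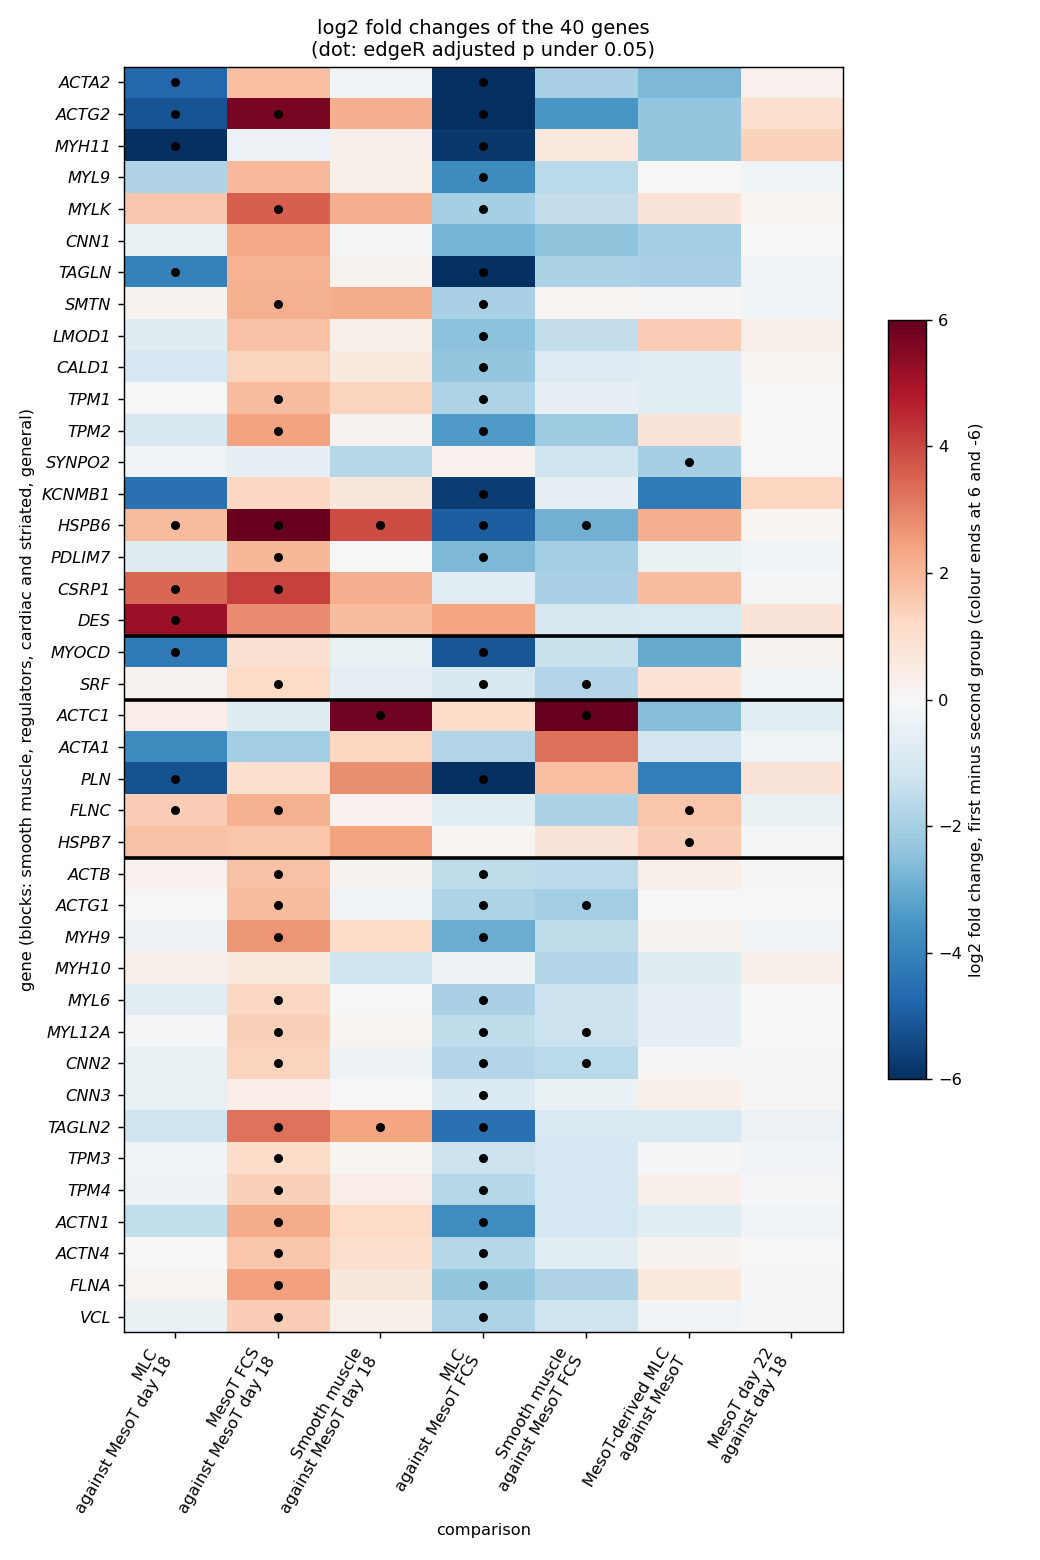
log2 fold changes (colour, first group minus second; the scale ends at 6 and -6) of the 40 genes in rows and the 7 comparisons in columns; dots mark an edgeR adjusted p under 0.05 and black lines part the 4 lists. Serum against day 18 holds 23 dots, all in red, and MLC against serum 31 dots, all in blue, while day 22 against day 18 holds none.

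ACTA2 (ENSG00000107796), the alpha actin of smooth muscle and of stress fibres in activated mesenchyme, was measured at 515 and 80.7 CPM in the MesoT day 18 libraries, 1830 and 264 in MesoT FCS, 10.3 and 12.5 in MLC and 269 in smooth muscle. MesoT FCS overlapped MesoT day 18, since its second library lay below the first day 18 library. Both MLC libraries lay below all others of the set. ACTA2 fell by 4.71 ± 1.24 on the log2 scale (standard error, edgeR adjusted p = 0.0412, 26.1-fold) in MLC against MesoT day 18. Over the alternatives this value ran from -5.50 to -2.73, and the call was lost without the first day 18 library and without either MLC library. Against MesoT FCS it fell by 6.52 ± 1.35 (edgeR adjusted p = 0.0107). The rise in serum of 1.81 ± 1.09 did not pass (edgeR adjusted p = 0.25), and without the first serum library it was -0.17.

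ACTG2 (ENSG00000163017), the gamma actin of gut and urinary smooth muscle, had 20.9 and 7.38 CPM at day 18, 1240 and 218 in MesoT FCS, 0.397 and 0.385 in MLC and 64.3 in smooth muscle. The groups did not overlap. It rose 51.6-fold in serum (log2 5.69 ± 1.00, edgeR adjusted p = 0.0137) and fell by 5.17 ± 1.02 in MLC against day 18 (edgeR adjusted p = 0.0175). Between the 2 forms that lie farthest apart, MLC against MesoT FCS, it fell by 10.85 ± 1.26 (edgeR adjusted p = 0.0016), with 30 and 27 counts left in MLC. The smooth muscle library had 2.19 ± 0.97 more than day 18 (edgeR adjusted p = 0.19), which did not pass.

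The make-up of actin shows the same genes as shares of the counts of 6 actin genes, compared between libraries only, since gene lengths differ. ACTA2 made 6.19% (95% exact binomial interval 6.10% to 6.29%) and 1.47% (1.41% to 1.52%) of actin counts at day 18 and 6.52% and 1.19% in MesoT FCS, so the share did not move with serum within the spread of the libraries. In MLC it made 0.132% (0.123% to 0.142%) and 0.183% (0.171% to 0.195%), and in smooth muscle 3.49% (3.41% to 3.58%). ACTG2 made 0.251% and 0.134% at day 18 and 4.42% and 0.980% in MesoT FCS. Cardiac ACTC1 made 9.34% (9.21% to 9.47%) of actin counts in smooth muscle and at most 0.286% in every other library of both sets. The intervals cover counting error only.

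MYH11 (ENSG00000133392), the smooth muscle myosin heavy chain and the most selective marker of mature smooth muscle on the list, had 9.12 and 4.72 CPM at day 18, 5.54 and 5.42 in MesoT FCS, 8.63 in smooth muscle and 0.0925 and 0.0997 in MLC, from 7 counts in each MLC library. It fell by 6.12 ± 0.50 in MLC against day 18 (edgeR adjusted p = 0.000908, 69.7-fold), and this was 1 of the 10 calls of that comparison that passed under every alternative run. It was not higher in serum (-0.34 ± 0.38, edgeR adjusted p = 0.53) or in the smooth muscle library (0.32 ± 0.46, edgeR adjusted p = 0.67), and both signs changed under some alternatives. MYLK (ENSG00000065534) stood at 20.8 and 8.20 CPM at day 18, 207 and 146 in MesoT FCS, 54.2 and 35.1 in MLC and 66.6 in smooth muscle, and rose 12.2-fold in serum (log2 3.61 ± 0.51, edgeR adjusted p = 0.00837). Between 2.15% and 16.4% of the counts of MYLK and its antisense genes lay on the latter. MYLK was 1.62 ± 0.47 above day 18 in MLC (edgeR adjusted p = 0.054) and 2.20 ± 0.54 in smooth muscle (edgeR adjusted p = 0.06), neither past the threshold. The light chain MYL9 had 580 and 188 CPM at day 18, 2008 and 909 in MesoT FCS, 117 and 100.0 in MLC and 483 in smooth muscle; it fell by 3.75 ± 0.66 in MLC against MesoT FCS (edgeR adjusted p = 0.00617), and its differences from day 18 in serum (1.92 ± 0.61, edgeR adjusted p = 0.063) and MLC (-1.83 ± 0.61, edgeR adjusted p = 0.078) did not pass.

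Transgelin and calponin bind the thin filament. TAGLN (ENSG00000149591) had 922 and 131 CPM at day 18, 3457 and 1053 in MesoT FCS, 37.3 and 25.1 in MLC and 600.2 in smooth muscle. MLC lay below all others, and TAGLN fell by 4.08 ± 1.06 there against day 18 (edgeR adjusted p = 0.0393) and fell by 6.17 ± 1.17 against MesoT FCS (edgeR adjusted p = 0.00787). In serum it was 2.10 ± 0.97 above day 18 (edgeR adjusted p = 0.15), which did not pass even though both serum libraries lay above both day 18 libraries. CNN1 (ENSG00000130176) had 107 and 22.5 CPM at day 18, 531 and 119 in MesoT FCS, 54.7 and 39.5 in MLC and 61.3 in smooth muscle, and passed in no comparison.

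Of the smooth muscle list, 4 further filament genes rose in serum. SMTN rose 4.42-fold, TPM1 3.63-fold, TPM2 5.30-fold and PDLIM7, a scaffold of actin bundles, 3.96-fold (log2 standard errors 0.51, 0.39, 0.65 and 0.44; edgeR adjusted p = 0.0289, 0.0205, 0.0404 and 0.0242). TPM2, the beta tropomyosin, stood at 536 and 144 CPM at day 18, 2321 and 1277 in MesoT FCS, 182 and 162 in MLC and 391 in smooth muscle. SMTN, a marker of contractile smooth muscle, stood at 44.2 and 20.0 CPM at day 18, 195 and 88.3 in MesoT FCS, 34.1 and 40.7 in MLC and 153 in smooth muscle. All 4 fell in MLC against MesoT FCS, as did CALD1 (log2 -2.32 ± 0.44) and LMOD1 (log2 -2.48 ± 0.83, edgeR adjusted p = 0.0495). The LMOD1 call was lost in 6 of 11 alternatives, over which its log2 value ran from -3.24 to -0.77. KCNMB1, the beta subunit of the calcium-activated potassium channel of smooth muscle, had 1.13 and 0.820 CPM at day 18, 4.24 and 0.279 in MesoT FCS, 1.59 in smooth muscle and 3 counts in each MLC library, and fell by 5.69 ± 1.33 in MLC against MesoT FCS (edgeR adjusted p = 0.0161).

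HSPB6 (ENSG00000004776), a small heat shock protein phosphorylated during smooth muscle relaxation, gave the largest rise of the 40. It had 1.03 and 1.85 CPM at day 18, 138 and 187 in MesoT FCS, 3.86 and 6.75 in MLC and 21.8 in smooth muscle. No groups of the set overlapped. The rise over day 18 was 113-fold in serum (log2 6.82 ± 0.47, edgeR adjusted p = 0.00226), 15.1-fold in smooth muscle (log2 3.92 ± 0.46, edgeR adjusted p = 0.016) and 3.69-fold in MLC (log2 1.88 ± 0.40, edgeR adjusted p = 0.0217). Against MesoT FCS the log2 difference was -2.90 ± 0.51 in smooth muscle (edgeR adjusted p = 0.0178) and -4.94 ± 0.42 in MLC (edgeR adjusted p = 0.000655). In the human table it had 15.0 and 3.42 CPM in MesoT-derived MLC and 1.63 to 2.60 in the 4 MesoT libraries, a difference of 2.19 ± 0.56 that did not pass (edgeR adjusted p = 0.062).

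CSRP1 and DES, with HSPB6, were the 3 smooth muscle genes that rose in MLC against day 18. CSRP1, a LIM protein of actin bundles, had 7.06 and 37.5 CPM at day 18, 486 and 284 in MesoT FCS, 284 and 196 in MLC and 101 in smooth muscle. It rose in serum by 4.11 ± 0.82 (edgeR adjusted p = 0.0184) and in MLC by 3.43 ± 0.79 (edgeR adjusted p = 0.0285), and MLC and MesoT FCS differed by -0.68 ± 0.72 (edgeR adjusted p = 0.46). DES (ENSG00000175084), the intermediate filament protein of muscle, had 3.13 and 1.85 CPM at day 18, 32.5 and 2.68 in MesoT FCS, 89.2 and 92.1 in MLC and 9.04 in smooth muscle. It rose 36.4-fold in MLC against day 18 (log2 5.18 ± 1.13, edgeR adjusted p = 0.0237). The difference from MesoT FCS of 2.36 ± 0.98 did not pass (edgeR adjusted p = 0.091), with the 2 serum libraries 32.5 and 2.68 CPM apart. MesoT-derived MLC had 2.90 and 1.20 CPM of DES, in a set scaled apart. SYNPO2, an actin-bundling protein of muscle, stood at 28 and 46.2 CPM at day 18, 40.9 and 11.1 in MesoT FCS, 27.7 and 33.6 in MLC and 11.2 in smooth muscle, and was called in no comparison of the set.

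MYOCD and SRF are the 2 regulators. MYOCD (ENSG00000141052) had 29.0 and 7.93 CPM at day 18, 44.5 and 24.3 in MesoT FCS, 13.6 in smooth muscle and 0.740 and 1.21 in MLC. It fell by 4.24 ± 0.73 in MLC against day 18 (edgeR adjusted p = 0.0111) and fell by 5.14 ± 0.76 against MesoT FCS (edgeR adjusted p = 0.00347). SRF had 84.7 and 50.8 CPM at day 18, 182 and 130 in MesoT FCS, 81.2 and 77.8 in MLC and 46.3 in smooth muscle. It rose 2.30-fold in serum (log2 1.20 ± 0.29, edgeR adjusted p = 0.0316). This call was lost in 4 of 12 alternatives: with total counts as library sizes, without the second day 18 library and without either serum library. In MLC SRF fell by 0.97 ± 0.29 against MesoT FCS (edgeR adjusted p = 0.0363). Both MLC libraries lay between the 2 day 18 libraries for SRF, and smooth muscle lay below all others, with a log2 difference of -1.75 ± 0.39 from MesoT FCS (edgeR adjusted p = 0.0321).

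Of 28 further genes named as SRF partners and regulators of contraction, 7 rose and 7 fell in serum against day 18, with a median of 0.19, beside 13.0% and 14.4% of all genes. PRKCA, a protein kinase C, rose by 3.65 ± 0.40 and KCNMA1, the pore of the potassium channel that KCNMB1 serves, rose by 2.41 ± 0.22, while the calcium channel CACNA1C fell by 3.13 ± 0.26 and GUCY1A1, a subunit of the nitric oxide receptor, fell by 4.84 ± 0.69. In MLC against day 18 1 of the 28 rose (KCNMA1, 1.51 ± 0.21) and 3 fell (ELK3, MEF2C and ITPR1), beside 7.83% and 16.8% of all genes. Of 35 genes of focal adhesions and stress fibres, 20 rose and 1 fell in serum (median 1.22), beside the same 13.0% and 14.4%. In MLC 0 rose and 3 fell against day 18, and 1 rose and 27 fell against MesoT FCS, beside 22.6% and 26.3% of all genes in the latter. FHL2, a LIM protein of adhesions, rose by 2.92 ± 0.37 in serum and fell by 2.35 ± 0.37 in MLC against day 18. PXN, which encodes paxillin, rose by 1.53 ± 0.19 in serum, and ITGA8, an integrin of smooth muscle and mesenchyme, was the 1 gene of the list that fell there (log2 -5.75 ± 0.52).

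The cardiac and striated genes did not move as a block. ACTC1 (ENSG00000159251), the alpha actin of heart muscle, had 718 CPM in the smooth muscle library, 9.64 and 15.8 at day 18, 4.64 and 10.7 in MesoT FCS and 20.4 and 12.6 in MLC. It rose in smooth muscle 56.6-fold against day 18 (log2 5.82 ± 0.59, edgeR adjusted p = 0.0139) and by 6.55 ± 0.61 against MesoT FCS (edgeR adjusted p = 0.00454), and both calls held under every alternative run. Of 21 cardiomyocyte markers, 18 had a count in that library and their summed level was 99.1 CPM, inside the range of the other libraries of the set (26.4 to 245); MYH6, MYL2 and MYBPC3 were at 0. Of 10 skeletal muscle markers 6 had a count there, with a sum of 8.26 CPM (1.23 to 4.66 in the others) and MYOD1, MYOG, MYF5 and MYF6 at 0. Of 17 cardiomyocyte markers tested, 0 were called higher and 1 lower against day 18 (median log2 0.22). Against MesoT FCS 1 was called higher and 0 lower (median 1.63). Of 5 skeletal muscle markers tested, 0 were called against day 18 and 1 was higher against MesoT FCS. The shares of all genes were 5.08% higher and 3.58% lower against day 18, and 10.3% and 7.57% against MesoT FCS. ACTA1, the skeletal alpha actin, had 11.4 CPM in smooth muscle and 8.86 and 0.478 at day 18, and passed in no comparison.

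FLNC, the filamin of striated muscle, rose in serum (442 and 289 CPM at day 18, 2150 and 1071 in MesoT FCS, log2 2.14 ± 0.41, edgeR adjusted p = 0.0168) and in MLC (1103 and 923 CPM, log2 1.47 ± 0.40, edgeR adjusted p = 0.0448). PLN, phospholamban, the brake on the calcium pump, was measured at 0.773 and 1.50 CPM at day 18, 3.84 and 0.670 in MesoT FCS and 7.94 in smooth muscle. With 4 counts in 1 MLC library and 0 in the other, it fell by 5.23 ± 1.29 there against day 18 (edgeR adjusted p = 0.0344) and fell by 6.23 ± 1.31 against MesoT FCS (edgeR adjusted p = 0.0112). HSPB7, a heat shock protein of heart and skeletal muscle, had 34.9 and 1.23 CPM in the 2 serum libraries and was called in no comparison of the set.

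The general actin genes rose in serum with few exceptions. These encode the actins, non-muscle myosins, tropomyosins and cross-linkers that most cells carry. In serum against day 18, 13 of 15 rose, beside 13.0% of all genes. All 15 had a log2 fold change above 0, from 0.39 for CNN3 to 3.27 for TAGLN2 (median 1.50), but CNN3 was below 0 with total counts as library sizes and MYH10 without the first serum library. ACTB (ENSG00000075624) had 3883 and 2411 CPM at day 18, 13008 and 8420 in MesoT FCS, 3995 and 3511 in MLC and 3661 in smooth muscle. ACTG1 (ENSG00000184009) had 3879 and 2990, 11990 and 13363, 3782 and 3285, and 2965 CPM in the same order. Both serum libraries lay above every other library of the set, while MLC lay within or close to the range of the 2 day 18 libraries for both genes. ACTB rose 3.40-fold (log2 1.77 ± 0.38, edgeR adjusted p = 0.0218) and ACTG1 3.69-fold (log2 1.88 ± 0.29, edgeR adjusted p = 0.00974). These genes are often used as loading controls.

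FLNA, the filamin that cross-links cortical actin, had 1873 and 805 CPM at day 18, 8353 and 6618 in MesoT FCS, 1580 and 1432 in MLC and 2164 in smooth muscle, and rose 5.59-fold in serum (log2 2.48 ± 0.45, edgeR adjusted p = 0.0147). MYH9, the main non-muscle myosin heavy chain, rose 6.30-fold in serum to 7364 and 4149 CPM (log2 2.66 ± 0.51, edgeR adjusted p = 0.0172), and its relative MYH10 had 607 and 661 CPM at day 18 and 1404 and 483 in serum, which did not pass. ACTN1, an actinin of stress fibres and adhesions, rose 4.73-fold and VCL, vinculin, 2.82-fold (edgeR adjusted p = 0.0303 and 0.0326). TAGLN2, a transgelin of many cell types, had 148 and 81.8 CPM at day 18, 1374 and 838 in MesoT FCS, 57.0 and 41.7 in MLC and 595 in smooth muscle. It rose 9.65-fold in serum (edgeR adjusted p = 0.00681) and 5.19-fold in smooth muscle (log2 2.38 ± 0.45, edgeR adjusted p = 0.0355); without the second day 18 library the latter did not pass.

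In MLC against day 18, 0 of the 15 general actin genes were called, beside 24.6% of all genes called in either direction. At an unadjusted p under 0.05 there were 2 of the 15. Their log2 fold changes ran from -1.46 for ACTN1 to 0.29 for MYH10, with a median of -0.29 over the 15. In MLC against MesoT FCS, 14 of the 15 fell (median of the 15 -1.77), beside 26.3% of all genes lower and 22.6% higher. MYH10 was the exception. TAGLN2 fell by 4.49 ± 0.44 there and ACTN1 fell by 3.70 ± 0.57 (edgeR adjusted p = 0.000972 and 0.00406). Pseudogene copies took at most 3.79% of the counts of a gene and its copies (TPM3), and at most 1.01% for ACTB and ACTG1.

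**Figure D3:**
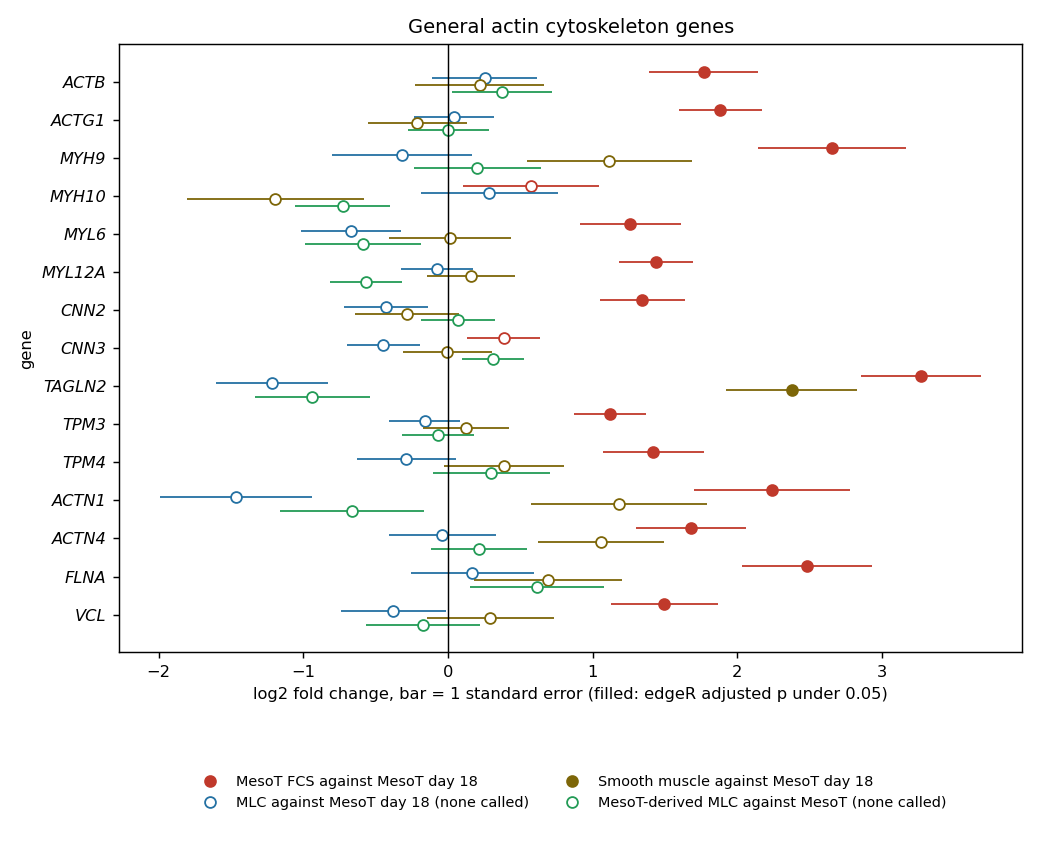
log2 fold changes of the 15 general actin genes (rows) in 4 comparisons (colours); horizontal bars are 1 standard error, filled points passed an edgeR adjusted p under 0.05. The serum points lie right of 0 for all 15 genes, up to 3.27 for TAGLN2 (CNN3 lies left of 0 with total counts as library sizes), and 13 are filled, while MLC against day 18 and MesoT-derived MLC against MesoT have none filled.

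The serum counts leaned on the first serum library. Without it, 5 of the 23 calls passed (ACTG2, MYLK, HSPB6, ACTG1 and TAGLN2), and without the second serum library 14 of the 23. With total counts as library sizes, a setting chosen after the scaling factors were seen, the median of all genes moved by -0.51 in this comparison, the calls over all genes changed from 2991 higher and 3310 lower to 1361 and 5731, and 20 of the 40 genes passed as higher.

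The calls were also counted by CArG box. Of the 11 genes with a box in the window 9 rose (median 1.88), and of the 23 with a window and no box 13 rose (median 1.68), beside 13.0% of all genes. The 2 with a box that did not rise were ACTC1 and ACTA1. In MLC against MesoT FCS 9 of the 11 and 17 of the 23 fell, beside 26.3% of all genes. ACTG2 with its 2 boxes and HSPB6 with none in its window were the 2 genes that rose most in serum.

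The library labelled smooth muscle was checked against the smooth muscle list. All 18 genes had counts in it, with a summed level of 4870 CPM, beside 4486 and 1717 at day 18, 18287 and 7601 in MesoT FCS and 1909 and 1789 in MLC. Against day 18, 3 of the 40 genes rose (HSPB6, ACTC1 and TAGLN2) and 0 fell, beside 5.08% of all genes that rose and 3.58% that fell. With 1 library, taken to vary as the other groups do, the limits are wide: ACTA2 differed by -0.15 ± 1.31, TAGLN by 0.19 ± 1.13 and CNN1 by -0.08 ± 1.09, and the signs of these 3 changed under some alternatives. SMTN was 2.25 ± 0.57 higher (edgeR adjusted p = 0.064), which did not pass. Without the first day 18 library 10 of the 40 passed in place of 3, and without the second the call of TAGLN2 was lost. Against MesoT FCS, ACTC1 was higher and HSPB6, SRF, ACTG1, MYL12A and CNN2 were lower, 1 and 5 of 40 beside 10.3% and 7.57% of all genes; without the first serum library SRF, ACTG1, MYL12A and CNN2 did not pass, and without the second only ACTC1 did. With total counts as library sizes the calls over all genes against day 18 changed from 1172 higher and 826 lower to 732 and 1493, with the same 3 of the 40 called.

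Markers of other cells were summed in that library and tested against day 18, where 5.08% of all genes rose and 3.58% fell. The 8 epidermal markers summed to 2894 CPM in it and to 1.56 to 16.8 CPM in the other libraries of the set, where KRT5 was at 0 in 1 day 18 and both serum libraries. Of these 8, 7 were called higher. The 11 fibroblast markers summed to 122039 CPM (19719 to 87145 in the others) and the 11 pericyte markers to 1940 (226 to 1495). Yet only 1 fibroblast marker was called higher and 1 lower, with log2 fold changes from -2.31 to 4.40. Of 10 pericyte markers tested, 2 were called higher and 0 lower. The 12 mesothelial markers summed to 5328 CPM (3124 to 6311 in the others), but 3 were called higher and 2 lower, with log2 fold changes from -9.68 to 6.96. The 7 endothelial markers summed to 60.4 CPM (7.54 to 276 in the others) with PECAM1 at 0 in every library of the set. For ACTC1, HSPB6 and TAGLN2 that part was not tested.

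For MLC the same lists gave 202 and 192 CPM of cardiomyocyte markers, above the 121 and 117 at day 18, with MYH7 and MYL2 at 0, and 226 and 293 CPM of pericyte markers, below the 911 and 754 at day 18. In serum, cardiomyocyte markers summed to 245 and 26.4 CPM and pericyte markers to 1495 and 981. Of the 17 cardiomyocyte markers tested 1 rose and 3 fell in each of MLC and serum against day 18, and of the 10 pericyte markers 4 fell in MLC while 3 rose and 1 fell in serum. For these and the next lists, the shares over all genes were 7.83% up and 16.8% down in MLC. In serum they were 13.0% up and 14.4% down. Of the 12 mesothelial markers 4 rose in MLC and 1 rose and 4 fell in serum against day 18, with sums of 4424 and 3620 CPM in MLC, 6311 and 3124 in serum and 5016 and 3461 at day 18. Of the 6 endothelial markers tested 3 fell in MLC (median -3.15) and 4 in serum, and the list summed to 133 and 174 CPM in MLC, 47.5 and 7.54 in serum and 276 and 117 at day 18. Of the 8 epidermal markers 0 were called by edgeR in MLC (1 at an unadjusted p under 0.05) and 3 fell in serum, where the list summed to 2.41 and 1.56 CPM. Their part in the changes of DES, PLN and the other genes of these groups was not tested. In MLC against day 18, leaving out either MLC library left 2 or 1 of the 10 calls. Without the first day 18 library ACTA2, TAGLN, HSPB6 and DES were lost, and without the second DES, PLN and FLNC. With total counts as library sizes the calls over all genes changed from 1804 higher and 3862 lower to 1008 and 4048, and against MesoT FCS from 5202 and 6070 to 6833 and 4757; 3 of the 31 genes lower against MesoT FCS then did not pass (LMOD1, SRF and CNN3), and against MesoT FCS 12 or 6 of the 31 passed when an MLC library was left out.

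The human table asked whether MesoT replated in MLC medium changed these genes. In MesoT-derived MLC against the 4 MesoT libraries, 3 of the 40 passed, 2 higher and 1 lower, beside 6.63% and 3.32% of all 22316 genes tested. FLNC had 966 and 1414 CPM, against 316 to 539 in MesoT (log2 1.65 ± 0.28, edgeR adjusted p = 0.0267). HSPB7 had 17.8 and 21.5 CPM against 4.55 to 9.76 (log2 1.49 ± 0.34, edgeR adjusted p = 0.0482). SYNPO2 had 15.4 and 8.76 CPM against 38.3 to 58.8 (log2 -2.01 ± 0.34, edgeR adjusted p = 0.0267). The groups did not overlap for any of these 3, beside 23.0% of all genes whose MesoT-derived MLC libraries both lay above the 4 MesoT libraries and 23.4% below. All 3 calls were lost when either MesoT-derived MLC library or either day 22 library was left out.

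The 6 genes that fell in direct-route MLC against day 18 were not called here. ACTA2 had 39.1 and 45.3 CPM in MesoT-derived MLC, below all 4 MesoT libraries (432 and 69.5 at day 18, 540 and 69.6 at day 22), a difference of -2.71 ± 1.08 (edgeR adjusted p = 0.15). MYOCD had 4.00 and 4.07 CPM against 8.54 to 61.2 (-3.00 ± 1.00, edgeR adjusted p = 0.11). ACTG2 had 7.65 and 1.92 CPM against 8.18 to 55.9 (-2.33 ± 0.94, edgeR adjusted p = 0.16). MYH11 had 1.61 and 1.27 CPM against 1.54 to 20.4 (-2.31 ± 1.03, edgeR adjusted p = 0.19), and TAGLN 90.2 and 136 against 108 to 813 (-1.93 ± 1.02, edgeR adjusted p = 0.26), both overlapping MesoT. PLN, with 0 and 7 counts, gave -4.10 ± 1.04 (edgeR adjusted p = 0.06). Among genes not called lower there, CNN1 had 19.6 and 17.7 CPM against 26.2 to 128 (-2.03 ± 0.80, edgeR adjusted p = 0.15). KCNMB1, with 4 and 2 counts, gave -4.22 ± 1.00 (edgeR adjusted p = 0.052). In direct-route MLC KCNMB1 also lay below day 18 without a call (0.0397 and 0.0427 CPM against 1.13 and 0.820). CSRP1 had 70.0 and 113 CPM against 7.73 to 44.5. ACTC1 had 0.513 and 3.42 CPM against 3.40 to 17.3. The 15 general actin genes had a median log2 fold change of 0.0034 and none was called (0 at an unadjusted p under 0.05). Mesothelial markers summed to 7769 and 8645 CPM in MesoT-derived MLC and 3379 to 4911 in MesoT.

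From day 18 to day 22 in MesoT, 0 of the 40 genes and 0% of all genes were called by edgeR (0 of the 40 and 171 genes in all at an unadjusted p under 0.05), and DESeq2 called 0 as well. The log2 fold changes of the 40 ran from -0.63 ± 0.95 for ACTC1 to 1.37 ± 1.05 for MYH11, with a median of -0.04. The standard errors of ACTA2, TAGLN and MYH11 there were 1.05 to 1.08, and a 2-fold difference is 1 on this scale. They come from a fit that did not pair libraries by replicate number. They hold a gap between replicates that both days share (ACTA2 432 and 69.5 CPM at day 18, 540 and 69.6 at day 22). With the replicate number in the fit, 0 of the 40 and 0 of all genes were called.

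The spread within MesoT was itself patterned by gene. In MesoT day 18 of the one-library files, 34 of the 40 genes were higher in replicate 1 than in replicate 2, 17 of them more than 2-fold, beside 7.05% of all genes past 2-fold in that direction. The same labelled samples in the human table gave 34 and 21 (6.73% of all genes), and day 22 gave 35 and 16 (2.63%). MesoT FCS gave 37 and 15 (4.53%). The median log2 differences of the 40 were 0.86, 1.04, 0.82 and 0.84 in that order, beside -0.01, -0.04, -0.03 and 0.02 for all genes. The shares of all genes higher in replicate 1 were 48.0%, 47.3%, 46.4% and 51.6%. ACTA2 stood at 540 and 69.6 CPM at day 22, for example. CSRP1 went the other way in MesoT, with 7.06 and 37.5 CPM at day 18 and 7.73 and 42.3 at day 22, and SYNPO2 did too. In MLC 25 of the 40 were higher in replicate 1 and 0 passed 2-fold (0.373% of all genes), and in MesoT-derived MLC 13 were higher and 4 passed (3.18%), with medians of 0.09 and -0.16. Of all genes 49.7% and 48.5% were higher in replicate 1 in these 2 groups. Replicates have no order and no test was made. Fibroblast markers summed to 45583 and 19997 CPM in the 2 day 18 libraries of the one-library files, 30041 and 17669 at day 22 and 72851 and 87145 in serum, and their part in the gap was not tested.

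**Figure D4:**
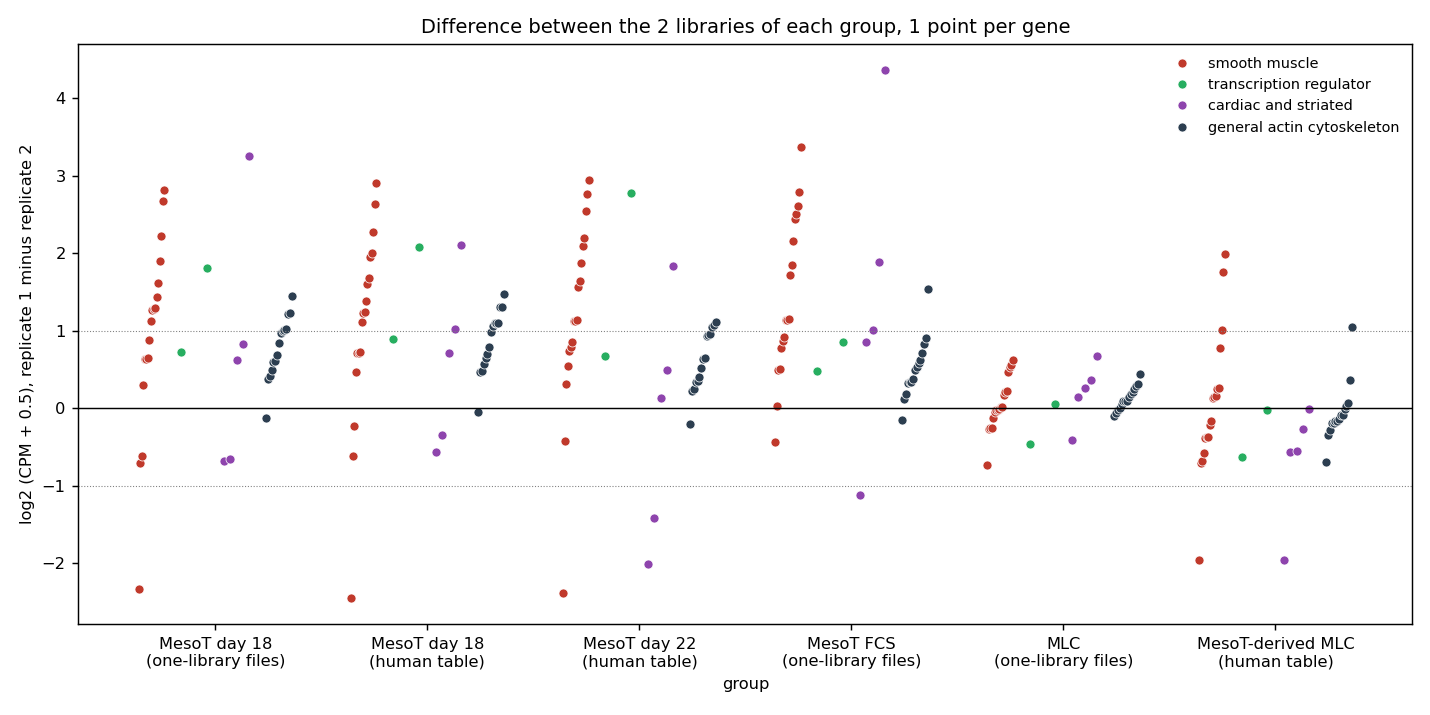
Difference of log2 (CPM + 0.5) between the 2 libraries of each group, replicate 1 minus replicate 2, for the 40 genes (points, coloured by list); dotted lines mark 2-fold. Most points of the 4 MesoT and serum columns lie above 0 (34, 34, 35 and 37 of 40), and those of MLC lie within 2-fold.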

How the data were processed

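The 11 human RNA samples gave 13 columns of counts: 7 files of 1 library each, and 6 columns of a human table in which the MesoT day 18 samples appear again. Both hold whole-number counts per Ensembl gene as deposited by the authors. Per the submitters' processing notes the tools were featureCounts, Subread 1.4.2, TopHat2 2.0.13, Bowtie2 2.2.9 and MACS2 2.1.1, and the build hg19, without roles. The sources used here give no annotation release, strand setting or read length. Mouse counts and chromatin samples were not analysed here.

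The sets were fitted apart with edgeR 4.0.16 in R 4.3.3 (filterByExpr by group, TMM scaling, quasi-likelihood test). P-values were adjusted over all genes by Benjamini-Hochberg and called under 0.05. Each fit had 3 residual degrees of freedom, and the spread of the lone smooth muscle library was taken from the other groups. Standard errors are the log2 fold change divided by the square root of F. CPM are counts over the TMM-scaled library size times 1e6, and ratios between replicates add 0.5 CPM. The fit was also run on simulated counts with the same spread for every gene. That run cannot show how the fit behaves for genes with wide gaps between replicates. Alternatives were DESeq2 1.42.0, its size factors in edgeR, no filter on low counts, voom of limma 3.58.1, total counts as library sizes (added after the scaling factors were seen), a replicate block, leaving out each library, a fit without smooth muscle, and the other counting of day 18.

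All 40 genes could be named. Those past the threshold in a set were to be given with their values in its libraries. This was not done for every one, for example MYL6, MYL12A, CNN2, TPM3, TPM4 and ACTN4. Up to 4 genes by smallest p came from each further list. The genes and lists were chosen with earlier results of these data known. Promoter sequences and starts are from RefSeq (GRCh38.p14).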

Additional observations from a re-analysis of the deposited data

How the results depend on the processing

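The calls kept under every alternative run were those of MYH11 (1 of 10) in MLC against MesoT day 18; ACTG2, MYLK, HSPB6, ACTG1 and TAGLN2 (5 of 23) in MesoT FCS against day 18; HSPB6 and ACTC1 (2 of 3) in smooth muscle against day 18; ACTG2, MYH11, HSPB6, MYOCD, TAGLN2 and ACTN1 (6 of 31) in MLC against MesoT FCS; ACTC1 (1 of 6) in smooth muscle against MesoT FCS; and none of the 3 in MesoT-derived MLC. No called gene changed direction. Of the 1153 values of single genes under the alternatives, 141 lost and 51 gained a call and 15 changed sign, none of them called.

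When 1 library was left out, which leaves fewer samples, the count among the 40 ranged from 1 to 15 in MLC against day 18 (1714 to 6601 of all genes), 5 to 27 in serum against day 18 (2783 to 7845), 3 to 10 in smooth muscle against day 18 (2339 to 4292), 6 to 35 in MLC against MesoT FCS (4962 to 8507), 3 to 4 in smooth muscle against MesoT FCS (1850 to 2150) and 0 to 3 in MesoT-derived MLC (0 to 2995). DESeq2 called 16 of the 40 in MLC against day 18 (7397 of all genes) and 6 in smooth muscle against day 18 (4925). It called 16 in smooth muscle against MesoT FCS (6412) and 11 in MesoT-derived MLC (4604). With no filter on low counts the 3 counts that moved were 16, 5 and 12 (6312, 2876 and 4601 of all genes). They belong to MLC against day 18, smooth muscle against day 18 and smooth muscle against MesoT FCS. With the human table's counts of day 18, 9237 genes were called in MLC, 12757 in serum and 7935 in smooth muscle, with 6 of the 40 in the last.

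Signs changed mostly where 1 library stood apart. In serum against day 18, ACTA2 ranged from -0.17 to 3.66 and MYH11 from -0.74 to 0.17 as libraries were left out, MYH11 was 0.62 with the table's day 18 counts, and CNN3 was -0.11 with total counts as library sizes. In smooth muscle against day 18, the leave-one-out ranges were -0.94 to 1.71 for ACTA2, -0.084 to 0.85 for MYH11, -0.81 to 1.42 for CNN1 and -0.62 to 2.17 for TAGLN. There ACTA2 was 0.40 with voom and 0.42 with the table's counts, CNN1 was 0.31 with voom, and MYH11 and TAGLN were -0.025 and -0.090 with total counts as library sizes. From day 18 to day 22, MYH11 ranged from -0.79 to 2.89 and ACTC1 from -2.09 to 0.076. The cause of these changes was not tested.

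Groups share replicate numbers. Across all genes the replicate differences of MesoT days 18 and 22 went together (Pearson r 0.56). Those of the other pairs of groups did little (0.067, 0.073 and 0.011 in the one-library files, -0.0077 and -0.064 in the human table). Among the 40 genes, most were higher in replicate 1 at day 18 (34 in both countings), day 22 (35) and in MesoT FCS (37). The main fits took no pairing. With the number as a replicate block, 12, 26, 32, 8 and 0 of the 40 were called in MLC against day 18, serum against day 18, MLC against MesoT FCS, MesoT-derived MLC and day 22. Over all genes the block called 4652, 5601, 10407, 2800 and 0 in that order. Against day 18 the block left 9 of the 10 calls in MLC, and it kept all 23 in serum.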
